A study of Homo sapiens with 9 samples.

Results

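NEAT1 and MALAT1, the abundant long noncoding RNAs of the nucleus, and SFPQ, NONO and PSPC1, the genes of the DBHS proteins (the family named after Drosophila behaviour and human splicing), were followed across 9 libraries of H2030 cells. The members were chosen by name, and all 5 of 5 were found among the 29972 genes of the deposited table and among the 13498 genes tested. H2030 cells, a long-established culture line grown out of a human lung tumour of the non-small cell type, were transfected with siRNA duplexes at 20 nmol/L using a lipid reagent. The siMENA11a group received a mix of duplexes matching exon 11a of ENAH, the exon that marks the epithelial isoform hMENA11a of the actin regulator hMENA. The siMENA group received a purchased pool of duplexes that targets every ENAH isoform. The control group received a non-targeting pool from another reagent line. Each of the 3 groups had 3 libraries, and the labels do not say that these came from separate cultures, so p-values measure only the spread between libraries, which may be technical. All groups share the line, the reagent and the siRNA dose, and no untransfected cells were used here. The question of the series is how tumour cells respond to loss of hMENA11a, with RIG-I, a sensor of RNA, and the type I interferon pathway in view.

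Paraspeckles are nuclear bodies that form on the long isoform of NEAT1. SFPQ and NONO bind this RNA as it is made and are needed for the body to form, while PSPC1 is enriched there and can be dispensed with. The short NEAT1 isoform shares the 5′ end of the long one and does not build paraspeckles by itself. MALAT1 is transcribed from the next long noncoding gene on the chromosome and gathers in nuclear speckles, the neighbouring bodies that store splicing factors. In immune signalling, NEAT1 is known for drawing SFPQ away from promoters such as that of CXCL8, and a complex of HEXIM1, DNA-PK, NEAT1 and the DBHS proteins has been tied to DNA sensing.

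In RefSeq (GRCh38.p14), NEAT1 lies at chr11:65422798-65445540 and MALAT1 at chr11:65497738-65506516, 52.2 kb beyond the end of NEAT1. SFPQ lies at chr1:35176380-35193145, PSPC1 at chr13:19671205-19782945 and NONO at chrX:71283635-71301168. The deposited values were made on GRCh37, per the submitters' processing notes, so these positions place the genes and were not read from the files. The table lists 1 transcript entry for NEAT1 and 1 for MALAT1, against 6 for SFPQ, 4 for NONO and 5 for PSPC1. GENCODE 29 holds NEAT1 transcripts of 512 to 22743 bases, and which of them the single entry stands for is not given in the sources used here. The NEAT1 value therefore cannot be divided into the short and the long isoform.

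2 short sites are shown first. They hold a run of letters that the 3′ UTR of NONO, the gene with the largest change of the 5, has in common with that of ENAH, the targeted gene. The capitals mark CAGCGTA, a word of 7 bases, in windows of 30 bases on GRCh38. The NONO site lies at chrX:71300751-71300780 on the plus strand, 686 bases after the stop codon in transcripts NONO-201, NONO-202 and NONO-215, and not in NONO-203. The ENAH site lies at chr1:225493730-225493759 on the minus strand, in the 3′ UTR of ENAH-204.
NONO: aaggtcacaggCAGCGTAcatacggttctg
ENAH: ccgattataagCAGCGTAaaagtaactata
The shared run was GCAGCGTA, 8 bases, and 13 of the 21 bases that end at the word were identical. A shared run of this length was common. Of the different 8-base runs in the 3′ UTR, the 10940 bases of the ENAH-204 3′ UTR also held 276 of 1059 in NONO (1092 bases), 473 of 1423 in SFPQ (1524 bases) and 197 of 650 in PSPC1 (675 bases), with 1 transcript read for each gene. The duplex sequences of the ENAH pool were not used here, and the part of this site in the values below was not tested.

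All values below are TPM (transcripts per 1000000) divided by a size factor per library, called scaled TPM. Fold changes are on the log2(scaled TPM + 0.5) scale with standard errors, and a gene was called at a Benjamini-Hochberg adjusted p of limma under 0.05 over all tested genes. Sequencing depth cannot be read from TPM and is unknown here, which leaves counting error without an estimate. At 1 TPM or more, a library held 12258 to 12520 genes. The RN7SL family, the RNA of the signal recognition particle, took 44.9% ± 0.487 of the TPM in siMENA11a libraries, 40.1% ± 0.524 in siMENA libraries and 40.2% ± 0.769 in control libraries (SD, n = 3 each). The part of this share, and of the marker levels below, in the results was not tested. Across genes, which are not independent replicates, Pearson's r of log values was 0.978 to 0.985 within groups and 0.951 to 0.971 between groups. ENAH averaged 7.22 TPM in siMENA libraries and 43.8 TPM in control libraries, a fall of 2.52 ± 0.038 that checks the siMENA label. In siMENA11a libraries ENAH averaged 47.6 TPM, and this sum over isoforms does not measure exon 11a. The 6 epithelial markers summed to 315 to 329 TPM in siMENA11a, 312 to 331 TPM in siMENA and 356 to 368 TPM in control libraries, mostly from KRT8 and KRT18. EPCAM averaged 2.90, 3.10 and 1.46 TPM in siMENA11a, siMENA and control libraries and rose by 0.80 under siMENA11a and 0.88 under siMENA. KRT7, at 15.8, 4.32 and 9.93 TPM, rose by 0.65 under siMENA11a and fell by 1.11 under siMENA. KRT19 was at or near 0, and CDH1, the E-cadherin gene, averaged 0.043, 0.10 and 0.053 TPM. The 6 leukocyte markers summed to 125 to 131, 41.1 to 49.5 and 97.4 to 105 TPM in the same order of groups, almost wholly from CD68, a lysosomal gene with log2 fold changes of 0.36 under siMENA11a and -1.13 under siMENA, while CD3E was at 0 in all libraries. The 5 fibroblast markers summed to 6.84 to 7.03, 14 to 15.7 and 7.66 to 8.54 TPM, mostly from COL1A1 (log2 fold changes of -0.26 and 0.88 in the same order), with COL1A2 and PDGFRB near 0. The 4 endothelial markers summed to 0.550 to 0.587, 0.973 to 1.18 and 0.513 to 0.672 TPM, mostly from CDH5, which rose by 0.54 under siMENA, with PECAM1, VWF and KDR near 0. Fewer cells of a kind and less RNA per cell cannot be told apart in such bulk samples.

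Both long RNAs moved under siMENA11a, in opposite directions. NEAT1 was at 30.7, 29.1 and 31.0 TPM in siMENA11a libraries 1, 2 and 3, at 61.0, 52.1 and 51.6 TPM in siMENA libraries, and at 37.8, 37.3 and 42.8 TPM in control libraries. The 3 groups did not overlap, with siMENA highest and siMENA11a lowest. NEAT1 fell by 0.37 ± 0.072 under siMENA11a (adjusted p = 0.00184) and rose by 0.48 ± 0.072 under siMENA (adjusted p = 0.000501). Of all tested genes, 29.5% changed at least as much under siMENA11a and 15.6% under siMENA. Set directly against siMENA, the siMENA11a libraries were lower by a log2 fold change of -0.84 ± 0.072 (adjusted p = 7.01e-06). NEAT1 had the widest spread of the 5 genes in siMENA and control libraries, with coefficients of variation of 3.41% in siMENA11a, 9.61% in siMENA and 7.76% in control.

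MALAT1 was at 396.1, 413.4 and 401.2 TPM in siMENA11a libraries, at 304.1, 305.0 and 292.5 TPM in siMENA libraries, and at 303.8, 292.0 and 298.3 TPM in control libraries. The siMENA11a libraries all lay above the other 6, and the siMENA and control libraries overlapped. MALAT1 rose by 0.44 ± 0.032 under siMENA11a (adjusted p = 3.84e-06), a change that 22.8% of genes matched or passed. Under siMENA its log2 fold change was 0.01 ± 0.032 (adjusted p = 0.786), and this value depended on the scaling, reaching 0.13 (adjusted p = 0.00701) without small and structured RNAs and 0.24 (adjusted p = 0.000882) after quantile normalisation. Between siMENA11a and siMENA the log2 fold change was 0.42 ± 0.032 (adjusted p = 3.02e-06).

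**Figure D1:**
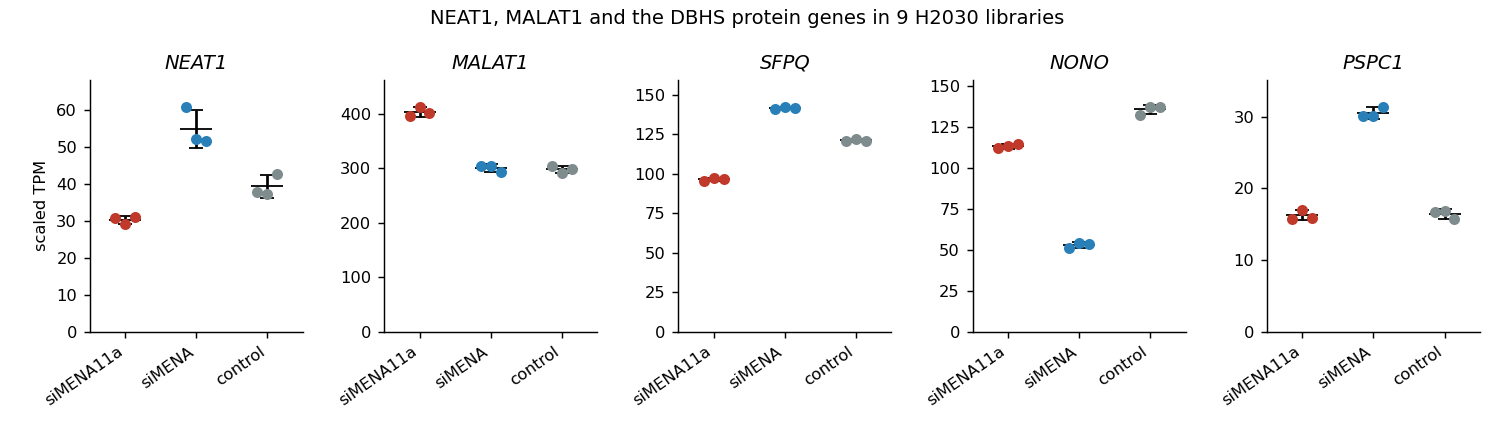
Scaled TPM of each gene in each library (points), by group on the x axis, with the mean as a horizontal line and bars of 1 SD (n = 3 each). NEAT1 and SFPQ order the groups as siMENA, control, siMENA11a from high to low, MALAT1 stands out in siMENA11a, and NONO and PSPC1 stand out in siMENA.

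Since both RNAs are measured in the same library, their ratio does not depend on the size factor. NEAT1 to MALAT1 was 0.0774, 0.0704 and 0.0774 in siMENA11a libraries, 0.200, 0.171 and 0.176 in siMENA libraries, and 0.124, 0.128 and 0.143 in control libraries. The groups did not overlap. The log2 ratio differed by -0.81 for siMENA11a against control, by 0.47 for siMENA against control and by -1.28 for siMENA11a against siMENA. Each of these, like all 9 ratio comparisons made here, gave an exact two-sided permutation p of 0.10, which is the smallest that 3 libraries against 3 allow, and 0.10 after Benjamini-Hochberg adjustment.

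SFPQ, an RNA- and DNA-binding splicing factor and transcriptional repressor, was at 95.3, 96.9 and 96.6 TPM in siMENA11a libraries, at 140.6, 142.4 and 141.4 TPM in siMENA libraries, and at 120.6, 121.9 and 120.5 TPM in control libraries. Its spread was narrow and the 3 groups were fully separate, in the same order as for NEAT1. SFPQ fell by 0.33 ± 0.024 under siMENA11a (adjusted p = 3.99e-06) and rose by 0.22 ± 0.024 under siMENA (adjusted p = 5.87e-05). Changes of at least these sizes were seen in 34.9% of tested genes under siMENA11a and in 44.6% under siMENA. The log2 fold change of siMENA11a against siMENA was -0.55 ± 0.024 (adjusted p = 1.15e-07).

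NONO, the DBHS protein that pairs with SFPQ in most of its complexes, was at 112.1, 113.3 and 114.9 TPM in siMENA11a libraries, at 51.3, 54.5 and 53.4 TPM in siMENA libraries, and at 132.8, 137.7 and 137.7 TPM in control libraries. Every siMENA library was below every other library, and the siMENA11a libraries also lay below all control libraries. NONO fell by 1.35 ± 0.032 under siMENA (adjusted p = 2.01e-08), to 0.390 of the control mean. It ranked 135 among 13498 genes by the size of that change, and 1.00% of genes changed at least as much. Under siMENA11a it fell by 0.26 ± 0.032 (adjusted p = 9.52e-05), a change that 44.9% of genes matched or passed.

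PSPC1, the least abundant DBHS gene, was at 15.8, 17.1 and 15.9 TPM in siMENA11a libraries, at 30.1, 30.1 and 31.4 TPM in siMENA libraries, and at 16.7, 16.9 and 15.7 TPM in control libraries. The siMENA libraries stood alone at the top, and the siMENA11a and control libraries overlapped. PSPC1 rose by 0.88 ± 0.044 under siMENA (adjusted p = 6.28e-07), 1.86 times the control mean, and 3.36% of genes changed at least as much. Under siMENA11a its log2 fold change was -0.02 ± 0.044 (adjusted p = 0.785), and its sign turned to 0.07 (adjusted p = 0.224) without small and structured RNAs and to 0.004 (adjusted p = 0.944) after quantile normalisation. Set directly against siMENA, the siMENA11a libraries had a log2 fold change of 1.09 ± 0.032 for NONO (adjusted p = 1.36e-08) and -0.89 ± 0.044 for PSPC1 (adjusted p = 2.36e-07).

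**Figure D2:**
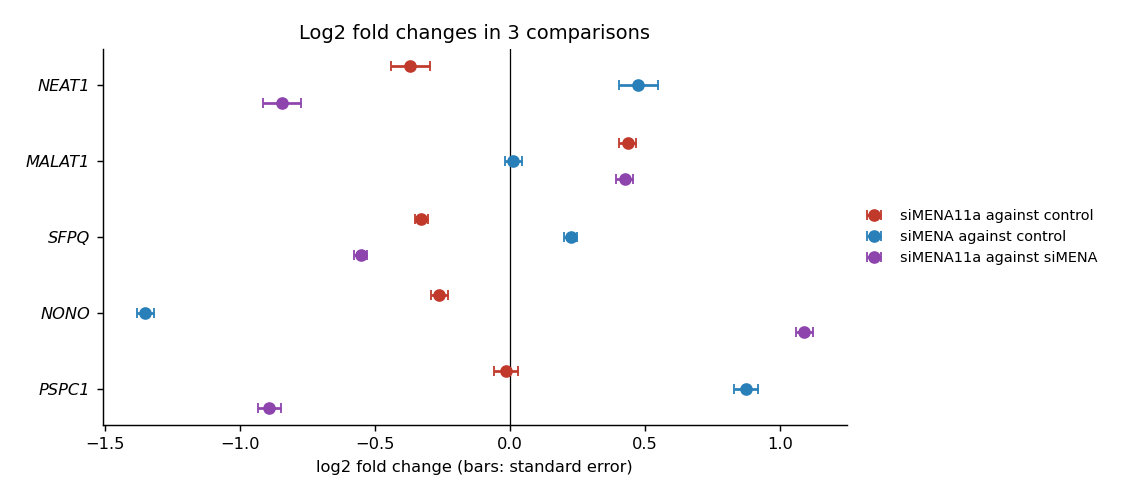
Log2 fold change of each gene (points, x axis) with its standard error (bars) in 3 comparisons, 1 row per gene. NONO under siMENA lies farthest left at -1.35, PSPC1 under siMENA lies at 0.88, and NEAT1 and SFPQ change sign between the knockdowns.

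For siMENA11a against control, 4 of the 5 genes were called, where 55.6% of all tested genes were called. 1 was higher, against 27.9% of all genes, and 3 were lower, against 27.7%. For siMENA against control, 4 of 5 were called, where 49.4% of all genes were. Of these, 3 were higher, against 23.7%, and 1 was lower, against 25.8%. For siMENA11a against siMENA all 5 were called, where 58.7% of all genes were, 2 higher against 29.5% and 3 lower against 29.2%. With shares of this size, the count of called members is not in itself a result about them. The share of all genes whose groups do not overlap is not given here, so the same holds for the separations described above. The split of calls over all genes depended on the scaling. For siMENA11a against control it was 3770 higher and 3733 lower, but 1965 and 4904 in TPM as deposited and 4935 and 2823 without small and structured RNAs. For siMENA against control it was 3196 higher and 3478 lower, but 3979 and 2300 as deposited and 5138 and 2241 without those RNAs. For siMENA11a against siMENA it was 3984 higher and 3937 lower, but with 6321 lower of 8351 calls as deposited. As deposited, the median log2 fold change of all genes was -0.11, 0.09 and -0.20 in these comparisons. Every called change of the 5 genes kept its direction and its call under these scalings and under quantile normalisation. Both knockdowns share the same control libraries, so their values against control are not independent.

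The 3 DBHS genes had a different make-up in the siMENA libraries, and their sum was below control in both knockdowns. In scaled TPM the summed level was 225.9 ± 2.39 TPM in siMENA11a libraries, 225.0 ± 2.70 TPM in siMENA libraries and 273.5 ± 3.26 TPM in control libraries (SD, n = 3 each). The siMENA11a sums ran from 223.2 to 227.4 and the siMENA sums from 221.9 to 227.0, but whether the knockdowns overlapped depended on the scaling. In TPM as deposited the sums ran from 197.8 to 221.2 in siMENA11a, from 234.4 to 246.3 in siMENA and from 268.6 to 287.9 in control libraries, with no overlap. Without small and structured RNAs they ran from 223.3 to 234.6, from 232.6 to 234.8 and from 258.2 to 264.4 in the same order. Under all 3 scalings both knockdowns lay below control. The shares of the sum do not depend on the scaling. NONO made up 50.2% ± 0.335 of the sum in siMENA11a, 23.6% ± 0.457 in siMENA and 49.7% ± 0.544 in control libraries. SFPQ made up 42.6% ± 0.107, 62.9% ± 0.447 and 44.2% ± 0.351 in the same order of groups. PSPC1 made up 7.19% ± 0.275, 13.6% ± 0.320 and 6.01% ± 0.240.

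**Figure D3:**
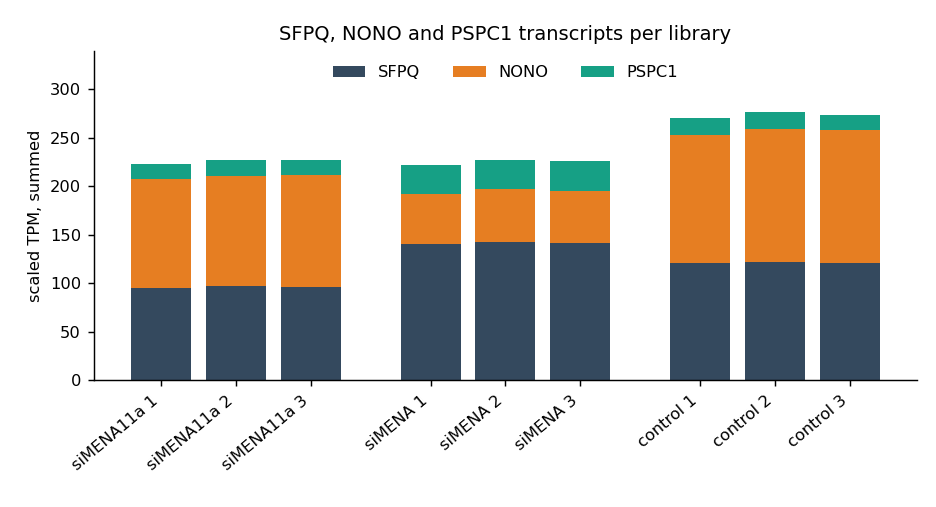
Stacked scaled TPM of SFPQ, NONO and PSPC1 (y axis) in each of the 9 libraries (x axis). On this scaling the bars of both knockdowns end near 225 TPM and those of control near 273.5 TPM, and the NONO segment is smallest in the siMENA libraries.

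Ratios within a library restate the shares of the sum and, like them, do not depend on the scaling. SFPQ to NONO was 0.849 ± 0.00727 in siMENA11a libraries, 2.67 ± 0.0676 in siMENA libraries and 0.890 ± 0.0166 in control libraries (SD, n = 3 each). The log2 differences were -0.07 for siMENA11a against control, 1.58 for siMENA against control and -1.65 for siMENA11a against siMENA. PSPC1 to NONO was 0.143 ± 0.00641, 0.576 ± 0.0204 and 0.121 ± 0.006 in siMENA11a, siMENA and control libraries. Its log2 differences were 0.25, 2.25 and -2.01 in the same 3 comparisons. The groups did not overlap in any of these, and each exact permutation p was 0.10.

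The word CAGCGTA shown above was one of 6 words examined, all of which had been picked because genes carrying them were lower in these same data, with NONO among the carriers of this one. Its ranking and the levels of its carriers are therefore a description with no test. GENCODE 29 gave a 3′ UTR for 11311 tested genes, and 220 of them (1.95%) held CAGCGTA. Their median log2 fold change under siMENA was -0.18, against 0.01 for the other genes. At least 2-fold lower levels were seen in 15 of the 220 carriers (6.82%), against 1.16% of the others. Among the 15 were NONO and ENAH, the targeted gene itself (log2 fold change of -2.52). NONO was the 7th lowest carrier. Ranked by the mean difference between carriers and other genes, CAGCGTA stood at 2 of 16236 words, and AGCGTAA, which overlaps it by 6 letters and is in the ENAH site but not in NONO, stood at 1. No transcript of SFPQ or PSPC1 that was searched held any of the 6 words.

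**Figure D4:**
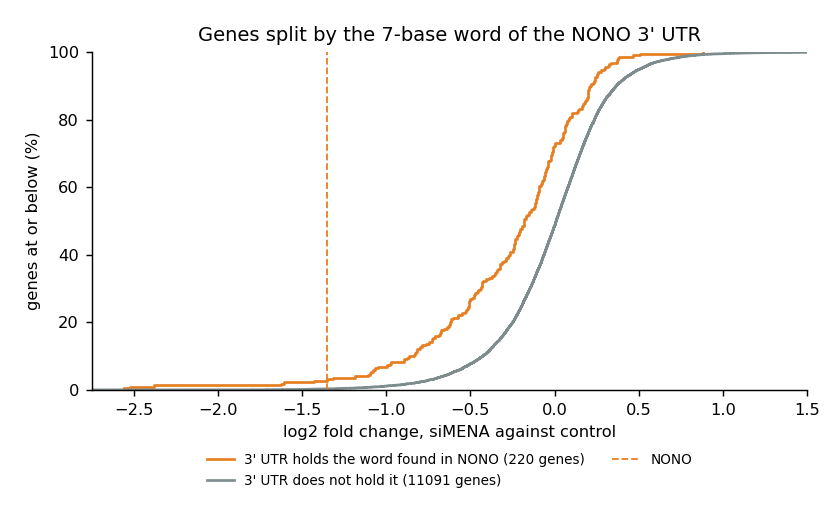
Cumulative share of genes (y axis, %) at or below a log2 fold change for siMENA against control (x axis), for 220 genes whose 3′ UTR holds CAGCGTA and 11091 genes whose 3′ UTR does not. The word was picked from these same data, and its carriers include ENAH. The carriers lie to the left with a median of -0.18, and NONO (dashed line, -1.35) lies in their lower tail.

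The long RNAs were searched for the same words over their whole length. MALAT1-202 held CAAGGAA at 1 place, and also the word CAGAATA with the overlapping word AGAATAA. NEAT1-202, the transcript of 22743 bases, held CCAAGGA at 2 places and AGAATAA at 3, and the short NEAT1 transcripts held none. CAAGGAA was also in the coding sequence of NONO, across an exon junction, and in the coding sequence of ENAH-204, at chr1:225505036-225505042. Under siMENA11a, carriers of CAAGGAA in the 3′ UTR had a median log2 fold change of -0.08, against 0.03 for other genes. At least 2-fold lower levels were seen in 4.21% of these carriers, against 0.89% of the others. For CCAAGGA these shares were 4.18% and 0.94%. Both words had also been picked from these same data, so these values are no test.

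The promoters of NONO and PSPC1 are shown because these genes had the largest changes under siMENA, in opposite directions. RefSeq promoter entries (300 bases around the start, GRCh38.p14) were found for 3 of the 5 genes. The capitals mark the YY1 core CGCCATNTT, searched on both strands, and in PSPC1 also the NRF1 motif GCGCATGC with its reverse complement GCATGCGC, which overlap there. The NONO entry is chrX:71283385-71283684 on the plus strand and the PSPC1 entry chr13:19782896-19783195 on the minus strand.
NONO: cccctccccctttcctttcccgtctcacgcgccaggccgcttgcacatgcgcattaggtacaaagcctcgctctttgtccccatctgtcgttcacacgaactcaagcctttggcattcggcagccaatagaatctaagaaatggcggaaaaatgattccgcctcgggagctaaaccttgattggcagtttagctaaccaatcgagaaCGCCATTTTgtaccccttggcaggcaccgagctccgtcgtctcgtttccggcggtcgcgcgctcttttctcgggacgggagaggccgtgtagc
PSPC1: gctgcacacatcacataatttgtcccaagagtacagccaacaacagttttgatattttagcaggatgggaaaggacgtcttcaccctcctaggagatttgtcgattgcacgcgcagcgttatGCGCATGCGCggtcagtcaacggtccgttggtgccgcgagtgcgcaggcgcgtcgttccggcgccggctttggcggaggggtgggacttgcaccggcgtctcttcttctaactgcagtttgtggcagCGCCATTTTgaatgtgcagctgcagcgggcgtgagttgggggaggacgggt
The YY1 core began 43 bases before the start in NONO and 1 base before it in PSPC1. Of 35116 promoters, 3.19% held this core and 3.05% the NRF1 motif. The MALAT1 entries held neither. These matches describe letters in the window, not binding.

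Among other paraspeckle proteins, siMENA11a libraries had more genes lower than higher, and siMENA libraries were evenly divided. Of 34 tested genes, 22 were called lower and 6 higher under siMENA11a, where 27.7% of all genes were lower and 27.9% higher, and their median log2 fold change was -0.17, where the median of all genes was 0.01. As deposited, 25 were lower and 2 higher, where 36.4% of all genes were lower and 14.6% higher. Without small and structured RNAs, 15 were lower and 7 higher, where 20.9% of all genes were lower and 36.5% higher. RBM3, a cold-inducible RNA-binding protein, fell by 0.71 ± 0.039 (29.03 TPM in siMENA11a and 47.98 TPM in control libraries), and CIRBP, the other cold-inducible protein of this kind, rose by 0.55 ± 0.048. DAZAP1 fell by 0.53 ± 0.033, HNRNPH1 by 0.41 ± 0.034 and SMARCC2, a subunit of the SWI/SNF remodelling complex, by 0.40 ± 0.034. RBM14, which is needed for paraspeckles to form, fell by 0.43 ± 0.044 (11.52 TPM in siMENA11a and 15.66 TPM in control libraries), and TARDBP, which encodes TDP-43, fell by 0.27 ± 0.033.

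Under siMENA, 9 of the 34 were called higher and 9 lower, where 23.7% of all genes were higher and 25.8% lower, and the median was 0.01. This even split turned to 11 higher and 4 lower as deposited, where 29.5% of all genes were higher and 17.1% lower. It turned to 20 higher and 4 lower without small and structured RNAs, where 38% of all genes were higher and 16.6% lower. The same shares of all genes apply to the lists that follow. FIGN fell by 0.67 ± 0.044, SMARCC2 by 0.51 ± 0.034 and RBM3 by 0.48 ± 0.039, while UBAP2L, an RNA-binding protein of stress granules, rose by 0.36 ± 0.028. RBM14 had a log2 fold change of -0.01 (adjusted p = 0.813). For HNRNPK, a regulator of NEAT1 3′ end choice, it was -0.19 under siMENA (adjusted p = 0.00179) and -0.09 under siMENA11a (adjusted p = 0.0495), and the calls were lost under all 3 other scalings for siMENA and under 2 of them for siMENA11a. SMARCA4, the catalytic subunit of SWI/SNF, averaged 0.033, 0.096 and 0.059 TPM in siMENA11a, siMENA and control libraries and was not tested.

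**Figure D5:**
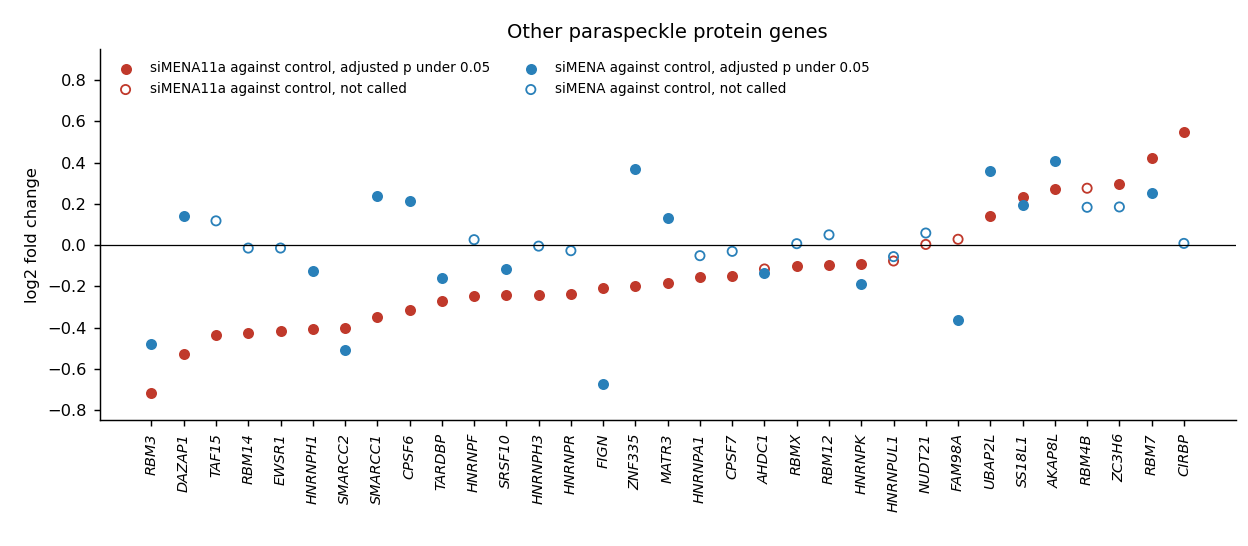
Log2 fold change (y axis) of the other paraspeckle protein genes, 1 of the 34 not plotted (x axis, ordered by siMENA11a against control), with filled points for an adjusted p under 0.05. Under siMENA11a 22 lie below 0 as called genes, from RBM3 at -0.71, and under siMENA 9 are called on each side.

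Factors that process or degrade the long RNAs came next. Of 27 tested genes, 14 were called lower and 4 higher under siMENA11a (median -0.14), where 27.7% of all genes were lower and 27.9% higher. This split became 16 lower and 0 higher as deposited, and 8 lower and 7 higher without small and structured RNAs. METTL3, the catalytic subunit of the m6A methyltransferase, fell by 0.82 ± 0.098. CPSF6, part of the cleavage factor that favours the short NEAT1 isoform, fell by 0.32 ± 0.036 under siMENA11a and rose by 0.22 ± 0.036 under siMENA, and ELAC2, the nuclease that trims tRNA 3′ ends, fell by 0.32 ± 0.039. METTL16, which binds the MALAT1 triple helix, rose by 0.26 under siMENA11a (adjusted p = 0.00247) but was not called as deposited. Under siMENA 48.1% of the 27 were called, against 49.4% of all genes. There 7 genes were higher and 6 lower, against 14 higher and 0 lower without small and structured RNAs. RPP38, a protein of RNase P, the enzyme that forms the MALAT1 3′ end, rose by 0.39 ± 0.038 there, and SKIV2L2, the helicase of the nuclear exosome, rose by 0.26 ± 0.048.

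Nuclear speckle proteins, the company of MALAT1, were divided. Of 24 genes, 8 were called higher and 9 lower under siMENA11a (3 and 11 as deposited, 11 and 6 without small and structured RNAs). Under siMENA 5 were higher and 6 lower (7 and 1 as deposited, 12 and 1 without those RNAs). The called share was 70.8% under siMENA11a and 45.8% under siMENA, against 55.6% and 49.4% of all genes. SRSF9, an SR splicing factor, fell by 0.78 ± 0.046 under siMENA11a, at 66.7 TPM in siMENA11a and 114.4 TPM in control libraries. SRSF1 fell by 0.35 ± 0.030 and SRSF2 by 0.28 ± 0.036, and SF3B1, a core protein of the U2 snRNP, rose by 0.26 ± 0.028 but was not called as deposited. Under siMENA, SRRM1 fell by 0.26 ± 0.031.

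Regulators reported to act on the NEAT1 gene were next. Of 10 tested, 5 were lower and 1 higher under siMENA11a, where 27.7% of all genes were lower and 27.9% higher, and this became 4 and 3 without small and structured RNAs. Under siMENA 3 were lower and 2 higher, where 25.8% of all genes were lower and 23.7% higher. HIF1A, the hypoxia factor, fell by 0.67 ± 0.036 under siMENA11a, at 72.3 TPM in siMENA11a and 115.6 TPM in control libraries. In the same group ATF2 fell by 0.61 ± 0.047 and E2F1 by 0.58 ± 0.072. STAT3 fell in both knockdowns, by 0.42 ± 0.032 under siMENA11a and by 0.47 ± 0.032 under siMENA. RUNX1 fell by 0.65 ± 0.065 and BRCA1 by 0.54 ± 0.057 under siMENA, and EPAS1, the HIF2A gene, rose by 0.21 ± 0.032.

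Genes of the HEXIM1 and DNA-PK complex were counted together with genes of DNA sensing and P-TEFb, so the counts are not of the complex alone. Of 8 tested, 4 were lower and 2 higher under siMENA11a, which became 3 and 3 without small and structured RNAs. Under siMENA 2 went each way (4 higher and 1 lower under both other scalings), and the 2 higher were CCNT1 and IRF3. The called share was 75% under siMENA11a and 50% under siMENA, against 55.6% and 49.4% of all genes. PRKDC, the catalytic subunit of DNA-PK, fell by 0.48 ± 0.032 under siMENA11a, and IRF3, the interferon regulatory factor downstream of DNA sensing, fell by 0.31 ± 0.043. The other DNA-PK genes were called lower in both knockdowns, XRCC6 at -0.18 under siMENA11a and -0.20 under siMENA, XRCC5 at -0.14 and -0.15. The XRCC5 call was kept under 1 of 3 other scalings for siMENA11a and 0 of 3 for siMENA. XRCC6 under siMENA turned to 0.02 after quantile normalisation. HEXIM1, the inhibitor of the elongation factor P-TEFb, rose by 0.34 under siMENA11a (adjusted p = 0.000828). CCNT1, the cyclin of P-TEFb, rose by 0.37 ± 0.045 under siMENA11a and by 0.38 ± 0.045 under siMENA. TMEM173, the gene of STING, averaged 0.282, 0.0845 and 0.193 TPM in siMENA11a, siMENA and control libraries and was not tested.

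The immune genes reported to be under SFPQ and NEAT1 control differed among themselves. IL8, the older symbol of CXCL8, the neutrophil chemokine gene at which SFPQ repression is best known, averaged 50.4, 48.6 and 78.0 TPM in siMENA11a, siMENA and control libraries. It fell by 0.62 ± 0.084 under siMENA11a and by 0.67 ± 0.084 under siMENA. IL6 fell by 0.57 ± 0.062 under siMENA11a. DDX58, the gene of RIG-I, averaged 15.3, 5.52 and 8.09 TPM in the same order of groups. It rose by 0.88 ± 0.060 under siMENA11a and fell by 0.51 ± 0.060 under siMENA. IFIH1, the gene of the sensor MDA5, rose by 0.98 ± 0.093 and by 0.30 ± 0.093 in these comparisons, and DDX60 and IRF7 rose under siMENA11a by 1.81 ± 0.097 and 1.25 ± 0.067. The chemokine gene CCL5 averaged 19.02, 0.114 and 0.562 TPM, with log2 fold changes of 4.22 ± 0.26 and -0.75 ± 0.26. Its siMENA and control levels are near or below the 0.5 added before the log, so the size of both changes depends on that addition. In all, 5 of 7 were higher and 2 lower under siMENA11a, where 27.9% of all genes were higher and 27.7% lower. Under siMENA 1 was higher and 4 lower, where 23.7% of all genes were higher and 25.8% lower. CCL5, at its low level, was among the lower. As deposited and without small and structured RNAs, 3 were lower. The IL6 call under siMENA (-0.24) was kept under 0 of 3 other scalings. The 5 higher under siMENA11a, DDX58, IFIH1, DDX60, IRF7 and CCL5, are also induced by interferon. This count therefore cannot be told apart from the interferon-stimulated genes below, and a part of SFPQ or NEAT1 in it was not tested. For reference, 22 of 23 interferon-stimulated genes were called higher under siMENA11a (median 1.46), where 27.9% of all genes were higher. Under siMENA 1 was higher and 10 lower (median -0.12), where 23.7% of all genes were higher and 25.8% lower. That split became 2 and 5 as deposited and 5 and 5 without small and structured RNAs.

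Other long noncoding RNAs went both ways. Of 21 tested, 8 were higher and 4 lower under siMENA11a, which turned to 4 and 6 as deposited. Under siMENA 8 were higher and 5 lower. The called share was 57.1% under siMENA11a and 61.9% under siMENA, against 55.6% and 49.4% of all genes. CRNDE had the largest fall of those named, by 1.33 ± 0.12 under siMENA and by 0.76 ± 0.12 under siMENA11a. TUG1, a nuclear RNA, fell by 0.33 ± 0.032 under siMENA11a. ZFAS1, a snoRNA host, rose by 0.64 ± 0.063 and MIR31HG by 0.60 ± 0.077 in that group, and LINC00152 fell by 0.60 ± 0.041 under siMENA.

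The protein-coding neighbours of NEAT1 and MALAT1 in 11q13 did not share one direction. Of 16 tested, 7 were higher and 3 lower under siMENA11a (3 and 5 as deposited), and 7 were higher and 2 lower under siMENA. The called share was 62.5% under siMENA11a and 56.2% under siMENA, against 55.6% and 49.4% of all genes. SLC25A45, a mitochondrial carrier gene, rose by 1.18 ± 0.054 under siMENA11a and by 0.53 ± 0.054 under siMENA. LTBP3, which encodes a TGF-beta binding protein, rose by 0.78 ± 0.078 and by 0.33 ± 0.078. FRMD8 rose by 0.33 ± 0.061 and by 0.56 ± 0.061. EHBP1L1 fell by 0.49 ± 0.047 and by 0.50 ± 0.047.

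Likeness to each member was measured as the root mean square difference of centred log2 values over the 9 libraries, among 8700 genes. NEAT1 was nearest to RPIA, a pentose phosphate enzyme gene, at 0.0601, then to C10orf2 (0.0731), CLCF1 (0.0765), TRIM65 (0.0791) and MESDC1 (0.0835), where the median gene stood at 0.381. MALAT1 was nearest to GTF2H1, a TFIIH subunit gene, at 0.0294, then to SLC25A46 (0.0333), OXSR1 (0.0341), SRP54 (0.0360) and VAV1 (0.0361), with a median of 0.256. SFPQ was nearest to CPSF6 at 0.0213, then to ZNF593 (0.0254) and ACACA (0.0268), with a median of 0.267. NONO was nearest to SPAST (0.0525), RECK (0.0553) and CBX1 (0.0610), with a median of 0.603. Among these genes only the 3′ UTR of CBX1 held CAGCGTA, and that of SPAST held none of the words examined. PSPC1 was nearest to PBXIP1 (0.0852), TBKBP1 (0.0955) and H6PD (0.104), with a median of 0.443.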

How the data were processed

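H2030 total RNA was depleted of ribosomal RNA and sequenced as stranded read pairs of 75 bases, per the labels' protocols. The authors deposited 1 table of gene TPM, whose 9 value columns (0 others of this kind) each sum to 1000000 within rounding, at 2 decimals. GRCh37 and kallisto are listed without role or version, per the submitters' processing notes, and the table's name points to RSEM. How reads were counted is not stated in those notes.

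TPM was divided by a median-of-ratios size factor over 12341 genes (0.886 to 0.973 in siMENA11a, 1.06 to 1.09 in siMENA, 0.995 to 1.04 in control). Genes with a mean of at least 0.5 were fitted by limma 3.58.1 (R 4.3.3) as log2(scaled TPM + 0.5), as 1 model of the 3 group means without a block, and p-values were adjusted by Benjamini-Hochberg. The code was tested on simulated data. Lists were described by counts without a set test. Genes named were the 5 members, up to 4 called genes per list and knockdown by adjusted p, the nearest genes by likeness (mean of at least 5 TPM) and a fixed set of known partners. CIRBP, HEXIM1 and TMEM173, which the rule does not name, were chosen after their values were seen. Members and lists were chosen with earlier results of these data known. Alternatives covered scaling, pseudocount, filter, samples in the fit, robust eBayes, the block and leaving out each library. Some genes of the lists are counted but not reported by name here.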

Additional observations from a re-analysis of the deposited data

How the results depend on the processing

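Across 10 other settings and 9 fits that each left out 1 library, 277 of 285 member values kept their direction and their side of the threshold, as did all 57 counts of called genes (within 1.5 times) and all 72 ratio values (within 1 SD). The exceptions were all in the pair of uncalled values. PSPC1 for siMENA11a against control was -0.02, but 0.0677 (adjusted p = 0.224) without small and structured RNAs and 0.00427 (adjusted p = 0.944) after quantile normalisation, and ran from -0.0475 to 0.00522 over the fits without 1 library, above 0 without control 2, siMENA11a 1 or siMENA11a 3. MALAT1 for siMENA against control became called at 0.134 (adjusted p = 0.00701) without small and structured RNAs and at 0.235 (adjusted p = 0.000882) after quantile normalisation, and ran from -0.00291 to 0.0315 without 1 library, below 0 without control 2. The cause was not tested. Without 1 library, NEAT1 ran from -0.405 to -0.307 for siMENA11a against control and from 0.397 to 0.538 for siMENA against control, and NONO from -1.37 to -1.33 and PSPC1 from 0.844 to 0.896 for siMENA against control. Called genes ran from 6633 to 7573 (siMENA11a against control), from 5876 to 6611 (siMENA against control) and from 7147 to 7972 (siMENA11a against siMENA). Replicate numbers are shared by the groups, and whether they pair the libraries is not known. Same-numbered libraries correlated at -0.0651 to 0.0584 in their deviations from group means, and differently numbered ones at up to 0.102. Such weak correlations do not settle the pairing. With the number as a replicate block, 7309, 6386 and 7732 genes were called, and no member's call changed. Depth is unknown in TPM, which limits what can be said of SMARCA4, TMEM173 and other genes near 0.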
